A study of Mus musculus with 15 samples.

Results

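Induced SPIC together with a hairpin against BCLAF1 was compared with the uninduced state in Rag -/- Abelson pre-B cells, a mouse line of early B cells immortalised by the viral kinase v-Abl. The comparison took the 3 libraries named Rag_SPIC_tet_DOX_shBCLAF1 against the 3 named Rag_SPIC_tet_NoDOX, 6 of the 15 RNA-sequencing libraries of the study, and followed 11551 protein-coding genes. Both groups were Rag -/- cells that carried a tetracycline-controlled SPIC construct, and both had been kept for 48 h in imatinib, which inhibits v-Abl, at passage 10 to 15. Rag_SPIC_tet_NoDOX received no agent and no hairpin, and Rag_SPIC_tet_DOX_shBCLAF1 received doxycycline (DOX) and the shRNA named shBCLAF1. The 3 Rag_SPIC_tet_DOX libraries, with doxycycline and no hairpin, are given beside them. The Art and Art_shBCLAF1 groups, 3 libraries each, are Art -/- (Artemis-deficient) Abelson cells in imatinib, with no agent and without or with the same hairpin. No label names a control hairpin or cells given doxycycline without the construct, so the effects of doxycycline, of induced SPIC and of the hairpin cannot be told apart in the main comparison. The labels do not say whether a line is 1 clone, which Rag gene is deleted, or whether libraries of a group came from separate cultures, and p-values therefore rest only on the spread between these libraries, which may be technical.

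SPIC belongs to the same small family of ETS transcription factors as PU.1 (gene Spi1) and SPIB. PU.1 and SPIB bind purine-rich GAGGAA sites and drive genes of the pre-B-cell receptor pathway, and SPIC can bind the same sites. RAG is the nuclease that cuts antigen-receptor genes in pre-B cells, and Artemis is needed to join its breaks. The cells of the main comparison are Rag -/-, so RAG breaks are not expected in them. BCLAF1 is a nuclear RNA-binding protein, related to the splicing factor THRAP3, that works in transcription and splicing. Imatinib stops v-Abl signalling, and Abelson cells then leave the cell cycle and switch on genes of the later pre-B stage, with MYC and proliferation genes falling. The question the study's title sets is how RAG breaks lower PU.1 activity through SPIC and BCLAF1.

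Values are log2 CPM as deposited, where CPM are reads scaled by library size, on effective library sizes of 17.8 to 18.1 M reads in Rag_SPIC_tet_NoDOX and 22.7 to 27.1 M in Rag_SPIC_tet_DOX_shBCLAF1. Both groups were tight. The root-mean-square log2 distance between libraries was 0.267 to 0.295 within Rag_SPIC_tet_NoDOX, 0.236 to 0.259 within Rag_SPIC_tet_DOX_shBCLAF1 and 1.11 to 1.14 between them. The Rag_SPIC_tet_DOX libraries stood 0.406 to 0.83 apart from each other. Every pair of libraries within the 2 groups differed by more than sampling noise (chi-square per degree of freedom 2.51 to 9.45), so none was a second copy of another. On the first principal component of the 9 Rag -/- libraries, which held 72.3% of the variance, Rag_SPIC_tet_NoDOX lay at -48.6 to -47.5 and Rag_SPIC_tet_DOX_shBCLAF1 at 68.7 to 70.5. Rag_SPIC_tet_DOX replicates 1, 2 and 3 lay at 0.18, -45.9 and -20.3. B-cell progenitor markers were present throughout: the 12 of them summed to 10800 to 11300 CPM in Rag_SPIC_tet_NoDOX and 8270 to 8590 CPM in Rag_SPIC_tet_DOX_shBCLAF1.

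The genes named by the labels were read first. Spic had 32, 20 and 47 reads in the Rag_SPIC_tet_NoDOX libraries and 4102, 4484 and 4691 in Rag_SPIC_tet_DOX_shBCLAF1. On the log2 CPM scale this was 0.87, 0.18 and 1.41 against 7.50, 7.43 and 7.44, a difference of 6.63 (SE 0.19, 99.3-fold, limma adjusted p = 5.16e-15). The Rag_SPIC_tet_DOX libraries, at 3.72, 4.59 and 4.31, lay between the groups without touching either. Reads from the construct and from the cell's own Spic cannot be told apart in these tables.

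In the libraries labelled shBCLAF1, Bclaf1 itself was not reduced but raised. It measured 7.63, 7.70 and 7.77 log2 CPM in Rag_SPIC_tet_NoDOX, 7.76, 7.69 and 7.73 in Rag_SPIC_tet_DOX and 7.99, 8.05 and 8.10 in Rag_SPIC_tet_DOX_shBCLAF1. The libraries labelled shBCLAF1 lay above all 6 others, while Rag_SPIC_tet_NoDOX and Rag_SPIC_tet_DOX overlapped. Such separation was common: Rag_SPIC_tet_NoDOX and Rag_SPIC_tet_DOX_shBCLAF1 did not overlap for 9375 of 11551 genes (81.2%). The difference between Rag_SPIC_tet_DOX_shBCLAF1 and Rag_SPIC_tet_NoDOX was 0.34 (SE 0.05, limma adjusted p = 5.76e-06). In a fit over all 15 libraries the same difference had an adjusted p of 0.293. Thrap3, which encodes the related splicing factor, rose by 0.26 (SE 0.05, adjusted p = 5.76e-05), and it too was lost in the 15-library fit (adjusted p = 0.407). The RNA level therefore goes against the hairpin's label, and every direction below is that of the libraries labelled shBCLAF1. Protein was not measured.

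**Figure D1:**
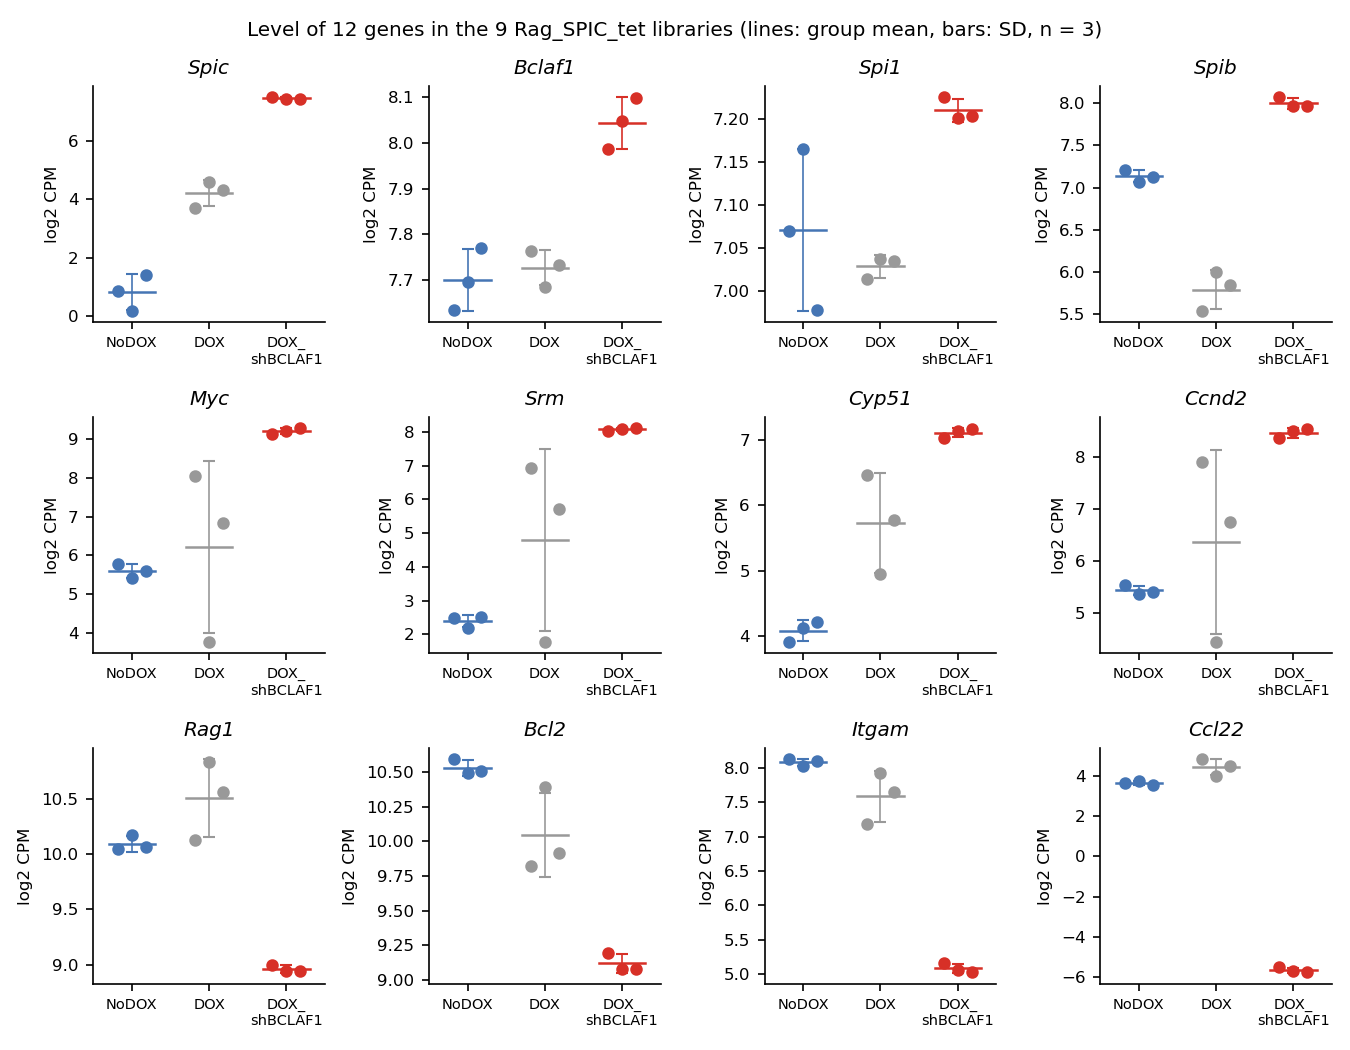
Level of 12 genes as log2 CPM (vertical axes, each with its own range) in the 3 Rag_SPIC_tet_NoDOX, 3 Rag_SPIC_tet_DOX and 3 Rag_SPIC_tet_DOX_shBCLAF1 libraries; points are libraries, lines group means and bars SD. Spic steps up from at most 1.41 to 3.72 to 4.59 and then to at least 7.43, Spib is lowest in Rag_SPIC_tet_DOX, and the 3 Rag_SPIC_tet_DOX libraries are far apart for Myc, Srm and Ccnd2.

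The comparison reached most of the genes in the tables. At an adjusted p below 0.05, 9206 of 11551 genes passed (79.7%), 4741 higher (41.0%) and 4465 lower (38.7%) in Rag_SPIC_tet_DOX_shBCLAF1. The tables list only genes that passed the authors' own test in at least 1 of 4 comparisons, none of which was this one, so these percentages are not shares of all genes a pre-B cell expresses. A change of at least 1 log2 unit was found for 1399 genes higher (12.1%) and 1265 lower (11.0%), and of at least 2 log2 units for 398 higher and 415 lower. The median difference over all genes was 0.02, and 5% of genes lay below -1.68 and 5% above 1.66. The split of calls depended on the scaling: with each library centred on its median, which moved the median of all genes to -0.13, 3822 genes were higher and 5467 lower. Centring lowered the median of every gene list below by the same amount as that of all genes, so medians near 0 have no firm sign. Since most genes passed, a gene list is read below by its median and by its members past 1 log2 unit. Counts of members that rose or fell are to be set against the shares of all genes given here.

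The other members of the SPI subfamily changed less than Spic. Spib, the B-cell relative of PU.1, was at 7.21, 7.07 and 7.12 log2 CPM in Rag_SPIC_tet_NoDOX, at 5.54, 6.0 and 5.84 in Rag_SPIC_tet_DOX and at 8.07, 7.96 and 7.96 in Rag_SPIC_tet_DOX_shBCLAF1. It was thus lowest in Rag_SPIC_tet_DOX and highest in the libraries labelled shBCLAF1, with no overlap between any of the 3 groups, and the combined difference was 0.86 (SE 0.05, limma adjusted p = 6.02e-11). Spi1, which encodes PU.1, was at 7.07, 7.17 and 6.98 against 7.23, 7.20 and 7.20. Its difference of 0.14 (SE 0.05, adjusted p = 0.019) turned to -0.01 on centred libraries and was lost without Rag_SPIC_tet_NoDOX replicate 3 (adjusted p = 0.125) and without Rag_SPIC_tet_DOX_shBCLAF1 replicates 1 (0.0573) or 2 (0.0517). It was also lost in a fit over all 15 libraries (0.477), without the variance trend (0.0673) and after quantile normalization (0.0989). Of all genes 41.0% were higher and 38.7% lower. Of the 18 SPI and other ETS factors, Spic among them, 6 were higher and 9 lower, with a median of -0.09. Beside Spic and Spib the largest changes on this list were Etv5 (2.70) and Erf, an ETS repressor (-0.83). The median was -0.06 without Rag_SPIC_tet_NoDOX replicate 2 and -0.24 on centred libraries.

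Genes known as targets of PU.1 and SPIB changed in both directions. So did all genes: 41.0% were higher and 38.7% lower, 12.1% and 11.0% by at least 1 log2 unit. Of 19 listed genes, 7 rose and 10 fell, 2 and 6 of them by at least 1 log2 unit, and the median was -0.29 against 0.02 for all genes (-0.44 against -0.13 on centred libraries). The 4 that fell most were Csf1r, the receptor for a macrophage growth factor (-3.18, SE 0.23), Itgam, an integrin chain of myeloid cells (-3.00, SE 0.05), Flt3, a receptor of early progenitors (-1.87, SE 0.14), and Bcl6, a transcriptional repressor (-1.60, SE 0.05). Itgam was at 8.12, 8.03 and 8.09 log2 CPM in Rag_SPIC_tet_NoDOX, at 7.19, 7.92 and 7.65 in Rag_SPIC_tet_DOX and at 5.16, 5.06 and 5.03 in Rag_SPIC_tet_DOX_shBCLAF1. Csf1r was at 1.88, 2.01 and 2.04, then 2.77, 1.30 and 2.43, then -1.25, -0.84 and -1.51. In both genes the libraries labelled shBCLAF1 lay below all 6 others. Those that rose most were Fcrla, an intracellular Fc receptor-like protein of B cells (2.11, SE 0.08), Grap2, a signalling adaptor (1.02, SE 0.06), and Btk, a kinase of the receptor pathway (0.89). Fcrla went down and then up: it was at 3.40, 3.73 and 3.63 in Rag_SPIC_tet_NoDOX, at 2.03, 2.93 and 2.52 in Rag_SPIC_tet_DOX and at 5.76, 5.66 and 5.67 in Rag_SPIC_tet_DOX_shBCLAF1.

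Markers of myeloid cells fell in the same libraries. Of 15 listed, 8 were measured, 6 fell by at least 1 log2 unit and none rose, with a median of -2.27. Csf1r, Itgam and Fcgr3 stand on this list and on that of the PU.1 targets. Adgre1, which encodes the macrophage antigen F4/80, was at 1.36, 2.14 and 1.58 log2 CPM against -2.70, -3.38 and -3.44 (difference -4.86, SE 0.34, limma adjusted p = 7.38e-10). Its reads were 45, 79 and 53 against 3, 2 and 2, so the size of this fall rests on few reads. Tyrobp, an adaptor of myeloid and NK receptors, fell by 2.27 (SE 0.20). Cd68 (-0.02) and Cd14 (-0.49) did not pass, and Cd14 had few reads in either group. Summed, the 8 genes went from 343 to 354 CPM down to 67.2 to 72.8 CPM, with 246 to 319 CPM in Rag_SPIC_tet_DOX. Most of the uninduced sum was Itgam, at 8.12, 8.03 and 8.09 log2 CPM against 5.16, 5.06 and 5.03. The fall of the sum is thus largely that of Itgam. The granulocyte and monocyte genes Mpo, Elane, Cebpa, Ctsg, Lyz1, S100a8 and S100a9 are not in the tables used here. In bulk RNA, fewer cells of a kind and less RNA per cell cannot be told apart, and the part of these markers in the changes of PU.1 targets was not tested. The 6 measured T-cell and NK markers summed to 76.6 to 79.9 CPM against 51.3 to 53.1 CPM, with 2 lower by at least 1 log2 unit (Cd247, -3.17; Gata3, -2.42). Of the 3 measured erythroid and megakaryocyte markers, which summed to less than 10 CPM in every library, 2 fell, neither by 1 log2 unit. Plasma-cell markers kept their sum at 948 to 989 against 948 to 992 CPM, while Sdc1 (-1.79) and Prdm1 (-1.52), the surface marker and the regulator of plasma cells, fell.

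Genes of pre-B-cell receptor signalling changed in both directions, as did the receptor's chains. Among 27 signalling genes 16 rose and 8 fell, 6 rose by at least 1 log2 unit and none fell that far, and the median was 0.29 (0.14 on centred libraries). Of all genes, 41.0% were higher and 38.7% lower, 12.1% and 11.0% by at least 1 log2 unit. Blk, a B-cell kinase of the SRC family, was at 5.90, 5.76 and 5.67 log2 CPM in Rag_SPIC_tet_NoDOX, at 4.79, 5.14 and 5.02 in Rag_SPIC_tet_DOX and at 7.71, 7.66 and 7.62 in Rag_SPIC_tet_DOX_shBCLAF1 (difference 1.89, SE 0.06, limma adjusted p = 1.02e-14). Like Spib and Fcrla it was below the uninduced level in Rag_SPIC_tet_DOX and above it in the libraries labelled shBCLAF1. Rasgrp1, which activates RAS (2.38, SE 0.09), and Ptpn6, the phosphatase SHP-1 (2.20, SE 0.05), rose as well. Syk and Blnk, the kinase and adaptor next to the receptor, fell. Syk was at 9.71, 9.70 and 9.63 against 9.09, 8.98 and 8.94 (difference -0.67, SE 0.05, adjusted p = 1.71e-09), and Blnk differed by -0.45 (SE 0.05, adjusted p = 2.02e-07). Cd72, an inhibitory coreceptor of B cells, fell by 0.58 and Zap70, a SYK relative, by 0.68, the latter not called in the 15-library fit (adjusted p = 0.0598). Of the 6 receptor chains none reached 1 log2 unit: Vpreb2 rose by 0.79, Vpreb1 fell by 0.61 and Igll1 did not pass (difference 0.005, SE 0.05), but on centred libraries it was lower (-0.15, adjusted p = 0.0136). Vpreb1 was not called in the 15-library fit (adjusted p = 0.138).

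The promoters of 4 of the genes that changed are shown as examples that hold a PU box or an E-box, the site that MYC binds. Other changed genes with either motif are not shown. Among them is Cd5, which has a PU box and rose (0.835), whereas Cd72 fell. The call of Cd5 was lost in the 15-library fit. Promoters are those of RefSeq on build GRCm38.p6, from 250 bases before to 50 after the gene start, written 5′ to 3′ on the gene's strand. Capitals mark the motif, which was searched as GAGGAAGT or its complement ACTTCCTC for the PU box and as CACGTG, its own complement, for the E-box. The motifs can overlap each other by 1 letter at most. This PU box is longer than the GAGGAA site named above. Shorter GAGGAA stretches, as in the promoters of Bcl6 and Atic, were not searched and are not marked. Cd72, lower, is at chr4:43454577-43454876 on the minus strand, with a PU box 49 bases before the start. Bcl6, lower, is at chr16:23988803-23989102 on the minus strand, with an E-box 60 bases before the start. Atic, a purine synthesis enzyme that rose, is at chr1:71556906-71557205 on the plus strand, with an E-box 7 bases before the start. Ldha, lactate dehydrogenase, which rose, is at chr7:46845554-46845853 on the plus strand, with E-boxes 145 and 48 bases before the start.
Cd72 promoter: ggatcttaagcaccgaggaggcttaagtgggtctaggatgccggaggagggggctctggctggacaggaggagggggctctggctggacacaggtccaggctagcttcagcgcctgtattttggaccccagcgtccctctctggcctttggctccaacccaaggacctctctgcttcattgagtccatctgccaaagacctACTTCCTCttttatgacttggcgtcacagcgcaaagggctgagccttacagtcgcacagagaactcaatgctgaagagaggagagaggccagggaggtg
Bcl6 promoter: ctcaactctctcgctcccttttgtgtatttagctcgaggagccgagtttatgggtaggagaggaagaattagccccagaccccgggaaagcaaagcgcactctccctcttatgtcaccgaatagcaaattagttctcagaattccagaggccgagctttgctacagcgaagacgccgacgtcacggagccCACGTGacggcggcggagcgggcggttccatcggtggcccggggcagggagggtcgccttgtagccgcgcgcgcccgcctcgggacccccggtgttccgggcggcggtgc
Atic promoter: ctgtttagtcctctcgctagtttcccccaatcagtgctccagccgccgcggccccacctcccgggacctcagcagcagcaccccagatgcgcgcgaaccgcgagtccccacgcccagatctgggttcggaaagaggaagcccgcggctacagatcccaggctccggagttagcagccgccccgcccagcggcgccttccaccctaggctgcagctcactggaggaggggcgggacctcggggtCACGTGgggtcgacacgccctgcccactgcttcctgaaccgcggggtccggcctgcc
Ldha promoter: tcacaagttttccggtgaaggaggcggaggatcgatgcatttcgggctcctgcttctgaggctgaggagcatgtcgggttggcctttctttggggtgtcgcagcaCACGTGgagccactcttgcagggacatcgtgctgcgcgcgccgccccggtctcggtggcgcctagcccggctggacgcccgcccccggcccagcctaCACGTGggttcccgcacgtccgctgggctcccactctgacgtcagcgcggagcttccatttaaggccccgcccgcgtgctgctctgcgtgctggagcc

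Of 9102 genes with a promoter entry, 928 (10.2%) held the E-box. It was in 152 of 1089 promoters (14.0%) of genes higher by at least 1 log2 unit, in 64 of 963 (6.65%) of genes lower by as much, and in 10.1% of the rest. The PU box was in 3.23% of all these promoters, in 3.58% of the higher, 2.91% of the lower and 3.22% of the rest. These shares are descriptions of the letters in 1 window per gene, with no test.

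Recombination genes were mostly lower in the libraries labelled shBCLAF1. Rag1, which encodes the cutting subunit of RAG, was at 10.05, 10.17 and 10.06 log2 CPM in Rag_SPIC_tet_NoDOX, at 10.13, 10.84 and 10.56 in Rag_SPIC_tet_DOX and at 9.0, 8.94 and 8.94 in Rag_SPIC_tet_DOX_shBCLAF1 (difference -1.14, SE 0.05, limma adjusted p = 1.29e-12). Both Rag genes gave reads in these Rag -/- cells, and the tables do not show which exons they came from. Rag2, the partner subunit, differed by -0.80 (SE 0.07, adjusted p = 2.34e-08), and Dntt, which adds nucleotides at joints, by -0.82 (SE 0.05). In the list of 13 recombination and light-chain stage genes, 8 fell and 3 rose with a median of -0.76, and the 3 that fell by at least 1 log2 unit were Rag1, Il7r and Bcl6. Among 19 B-lineage transcription factors 12 fell and 5 rose, but only 2 passed 1 log2 unit. Bcl11a, needed for B-cell development, rose from 6.91, 6.92 and 6.98 to 8.72, 8.82 and 8.82 (difference 1.85, SE 0.05). Tcf4, an E protein, fell by 1.13 (SE 0.05), while Pax5 rose by 0.49 and Ebf1 fell by 0.62.

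MYC and the genes of cell growth rose together. Myc was at 5.77, 5.41 and 5.60 log2 CPM in Rag_SPIC_tet_NoDOX and at 9.13, 9.20 and 9.29 in Rag_SPIC_tet_DOX_shBCLAF1, a difference of 3.61 (SE 0.07, 12.2-fold, limma adjusted p = 5.76e-17). The Rag_SPIC_tet_DOX libraries were at 8.06, 3.76 and 6.83, on both sides of the uninduced level. Mycn rose by 2.22 (SE 0.05) and Mycl fell by 2.31 (SE 0.16). Of the MYC antagonists, Mxd1 (-1.21) and Mxd3 (-1.22) fell by more than 1 log2 unit, as did Mlxip (-1.66), which encodes a glucose-sensing partner in the network. In all, 6 of 12 network genes rose and 6 fell, beside 41.0% of all genes higher and 38.7% lower.

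All 30 listed MYC-driven growth genes rose, 28 of them by at least 1 log2 unit, with a median of 2.06 against 0.02 for all genes. Srm, spermidine synthase, was at 2.48, 2.19 and 2.52 log2 CPM in Rag_SPIC_tet_NoDOX and at 8.02, 8.09 and 8.10 in Rag_SPIC_tet_DOX_shBCLAF1 (difference 5.67, SE 0.08, 50.9-fold, limma adjusted p = 1.23e-18). In Rag_SPIC_tet_DOX it was at 6.91, 1.77 and 5.71. Bcat1, which handles branched-chain amino acids, rose by 3.69 (SE 0.06), and Rrp12 and Rrp9, which process ribosomal RNA, by 3.07 (SE 0.08) and 2.95 (SE 0.08). E-boxes as in the promoters of Atic and Ldha above stood in 5 of the 25 list members with a promoter entry. Outside the list, Dkc1, a ribosomal RNA and telomerase component (3.06, SE 0.05), and the purine synthesis enzymes Atic (3.32, SE 0.05) and Gart (2.98, SE 0.07) were among the 12 largest rises of well-expressed genes. Ldha, on the list, rose by 1.68 (SE 0.05).

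Amino acid and one-carbon metabolism rose with them. Of 15 enzymes of serine, folate and branched-chain metabolism, 14 rose and none fell, 13 by at least 1 log2 unit, with a median of 2.05. Mthfd1, which passes one-carbon units between folates, was at 4.61, 4.51 and 4.59 log2 CPM against 7.39, 7.46 and 7.40 (difference 2.85, SE 0.05, limma adjusted p = 3.02e-17). Pycr1, of proline synthesis (2.59), and Asns, asparagine synthetase (2.53), followed. The exception was Bcat2, the mitochondrial relative of Bcat1, which did not pass (-0.06, SE 0.07) but was called lower on centred libraries (-0.22, adjusted p = 0.00708). Of 12 amino-acid transporters 11 rose and none fell, 6 by at least 1 log2 unit, led by Slc7a3 (3.57, SE 0.13), Slc7a5 (2.39, SE 0.05) and Slc7a1 (2.26).

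Every measured gene of cholesterol synthesis and uptake rose, 19 of 19, and 14 by at least 1 log2 unit, with a median of 1.64. Cyp51, a demethylase of lanosterol, was at 3.91, 4.12 and 4.22 log2 CPM in Rag_SPIC_tet_NoDOX, at 6.46, 4.94 and 5.78 in Rag_SPIC_tet_DOX and at 7.03, 7.13 and 7.17 in Rag_SPIC_tet_DOX_shBCLAF1 (difference 3.03, SE 0.07, limma adjusted p = 4.91e-16). Unlike Myc and Srm, it was above the uninduced level in each of the 3 Rag_SPIC_tet_DOX libraries, and the 3 groups did not overlap. Idi1, which makes an isoprenoid building block, rose by 3.31 (SE 0.32) from a low level. Hmgcs1 is not in the tables used here. Among glycolysis and hypoxia genes 13 of 19 rose and 4 fell, 5 and 1 by at least 1 log2 unit. Hk2, a hexokinase, rose by 2.51 (SE 0.08), and Aldoc, an aldolase, fell by 1.21 (SE 0.13).

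**Figure D2:**
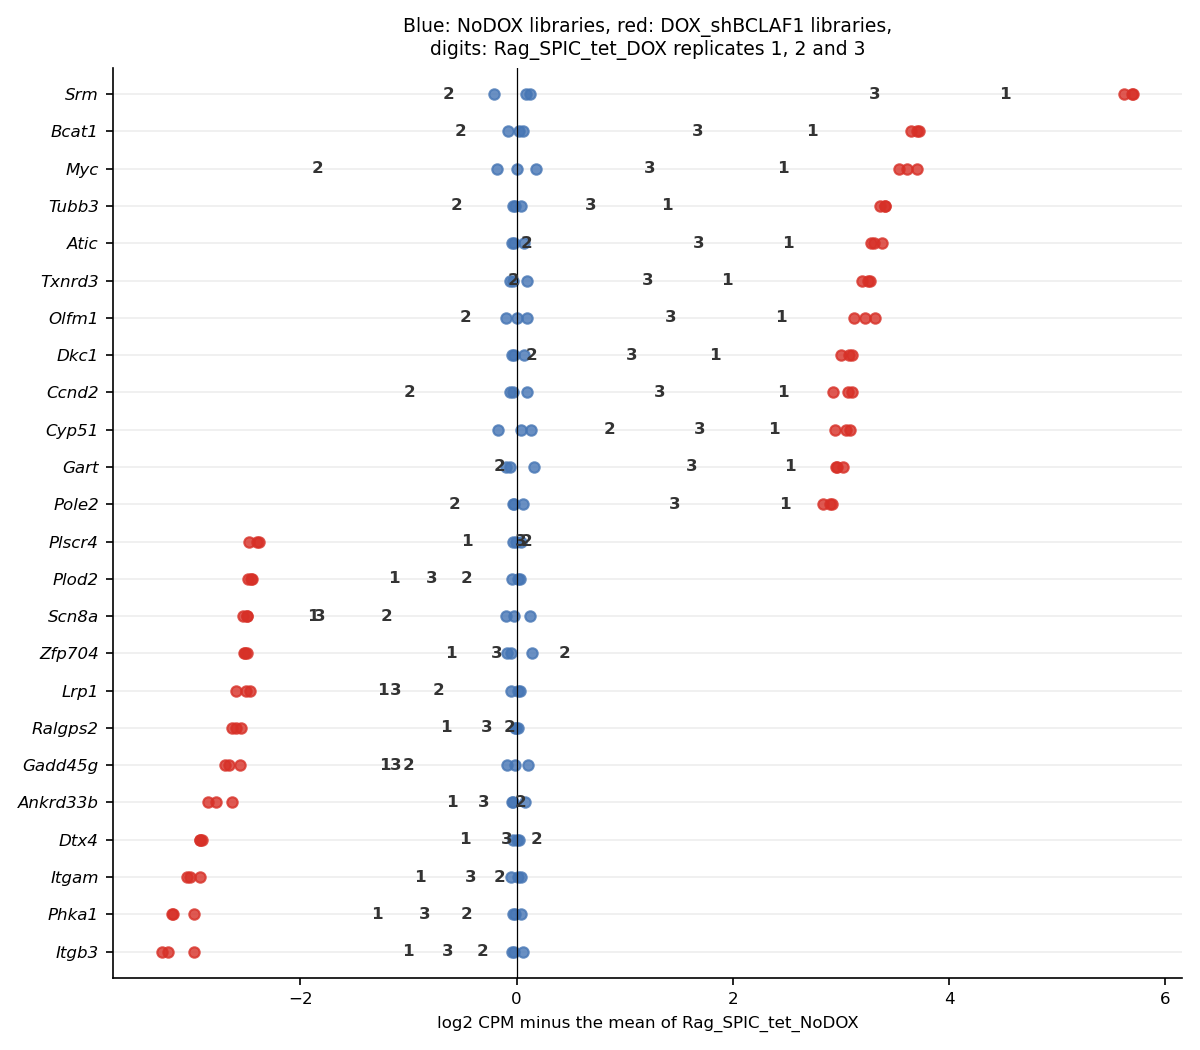
The 12 largest rises and 12 largest falls among well-expressed changed genes (above the median level, no overlap between groups), each library plotted as its log2 CPM minus the mean of Rag_SPIC_tet_NoDOX (horizontal axis). Blue points are Rag_SPIC_tet_NoDOX, red points Rag_SPIC_tet_DOX_shBCLAF1, and the digits 1, 2 and 3 mark the Rag_SPIC_tet_DOX replicates, of which replicate 2 lies below all Rag_SPIC_tet_NoDOX libraries for 8 of the 12 upper genes.

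Of 16 cyclins, kinases and inhibitors of the G1 phase, 8 rose and 8 fell, 5 and 2 by at least 1 log2 unit, with a median of -0.17 (-0.32 on centred libraries). The shares over all genes were 41.0% higher and 38.7% lower, 12.1% and 11.0% by at least 1 log2 unit. D-type cyclins rose: Ccnd2 was at 5.54, 5.38 and 5.41 log2 CPM against 8.37, 8.51 and 8.54 (difference 3.03, SE 0.06, limma adjusted p = 3.21e-17), Ccnd3 rose by 1.89 (SE 0.05) and Ccnd1 by 2.13 (SE 0.13). Ccnd1 was not called in the 15-library fit (adjusted p = 0.0506), and it was at 6.69, 1.61 and 5.36 in Rag_SPIC_tet_DOX. Ccne1, cyclin E, rose by 1.91. The inhibitors Cdkn2a (-1.59), Cdkn1b (-0.89) and Cdkn1a (-0.88), and Rbl2, a retinoblastoma relative (-1.15), fell. In the list of 22 DNA replication genes 21 rose and none fell, 8 by at least 1 log2 unit, with a median of 0.73. Ung, which removes uracil from DNA, rose by 2.81 (SE 0.08), and Mcm2, of the replicative helicase, by 1.72 (SE 0.05).

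Mitosis genes were mostly lower. Of 22, 18 fell and 1 rose, with a median of -0.42, although only Cenpe, a kinetochore motor, fell by at least 1 log2 unit (-1.08, SE 0.05). Ccnb2, cyclin B2, was at 7.46, 7.50 and 7.48 log2 CPM against 6.50, 6.49 and 6.48 (difference -0.99, SE 0.04, limma adjusted p = 1.8e-12). Mki67, the gene of the proliferation marker Ki-67, was at 10.44, 10.52 and 10.47 against 9.44, 9.59 and 9.61 (difference -0.93, SE 0.05), and was not called in the 15-library fit (adjusted p = 0.0732). The one that rose, Cdk1 (0.20, SE 0.05), was lost in that fit (adjusted p = 0.368) and on centred libraries (adjusted p = 0.412).

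Feedback genes of RAS and MAPK signalling, which v-Abl drives and imatinib lowers, were mostly higher. Of 16, 12 rose and 2 fell, 6 and 1 by at least 1 log2 unit, with a median of 0.76. Etv4, an ETS factor induced by ERK that is not on the ETS list above, was at -2.35, -1.09 and -0.91 log2 CPM in Rag_SPIC_tet_NoDOX, at 4.11, -1.56 and 2.88 in Rag_SPIC_tet_DOX and at 3.98, 4.05 and 4.13 in Rag_SPIC_tet_DOX_shBCLAF1 (difference 5.50, SE 0.28, limma adjusted p = 7.35e-12). Spry4, a feedback inhibitor, was at -1.69, -0.78 and 0.05, then 3.87, -2.66 and 2.73, then 4.12, 4.18 and 4.12 (difference 4.95, SE 0.29). For both genes, doxycycline replicate 1 was close to the libraries labelled shBCLAF1 and replicate 2 was in or below the uninduced range. Dusp6, an ERK phosphatase, rose by 1.95 (SE 0.06). Ier3, an early response gene, differed by -2.14 (SE 0.28), not called in the 15-library fit (adjusted p = 0.089).

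Genes of the IL-7 receptor and STAT5 changed in both directions. The feedback inhibitors on the list rose: Socs3 by 2.13 (SE 0.10), Cish by 1.85 (SE 0.06), Socs1 by 1.51 and Socs2 by 1.45. Il7r, the receptor chain, was at 10.42, 10.59 and 10.52 log2 CPM against 9.19, 9.14 and 9.17 (difference -1.34, SE 0.05, limma adjusted p = 2.61e-13), and Bcl2, the survival gene, was at 10.60, 10.49 and 10.51 against 9.20, 9.08 and 9.08 (difference -1.41, SE 0.05, adjusted p = 1.34e-13). Bcl2l1, a survival gene related to Bcl2, rose by 0.46. Over the 15 genes 8 rose and 7 fell, with a median of 0.16 that was 0.005 on centred libraries. Over all genes 41.0% were higher and 38.7% lower. FOXO-driven quiescence genes were mostly lower: 14 of 18 fell, 5 by at least 1 log2 unit, and 2 rose, with a median of -0.81. Arrdc3, an arrestin-related gene, was at 6.41, 6.41 and 6.50 in Rag_SPIC_tet_NoDOX, at 4.43, 4.62 and 4.51 in Rag_SPIC_tet_DOX and at 4.05, 4.08 and 4.24 in Rag_SPIC_tet_DOX_shBCLAF1 (difference -2.31, SE 0.06). Most of its difference was thus present in each of the 3 Rag_SPIC_tet_DOX libraries. Txnip, an inhibitor of glucose uptake, fell by 1.36 (SE 0.05) and Ccng2, a cyclin of resting cells, by 1.23 (SE 0.06).

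**Figure D3:**
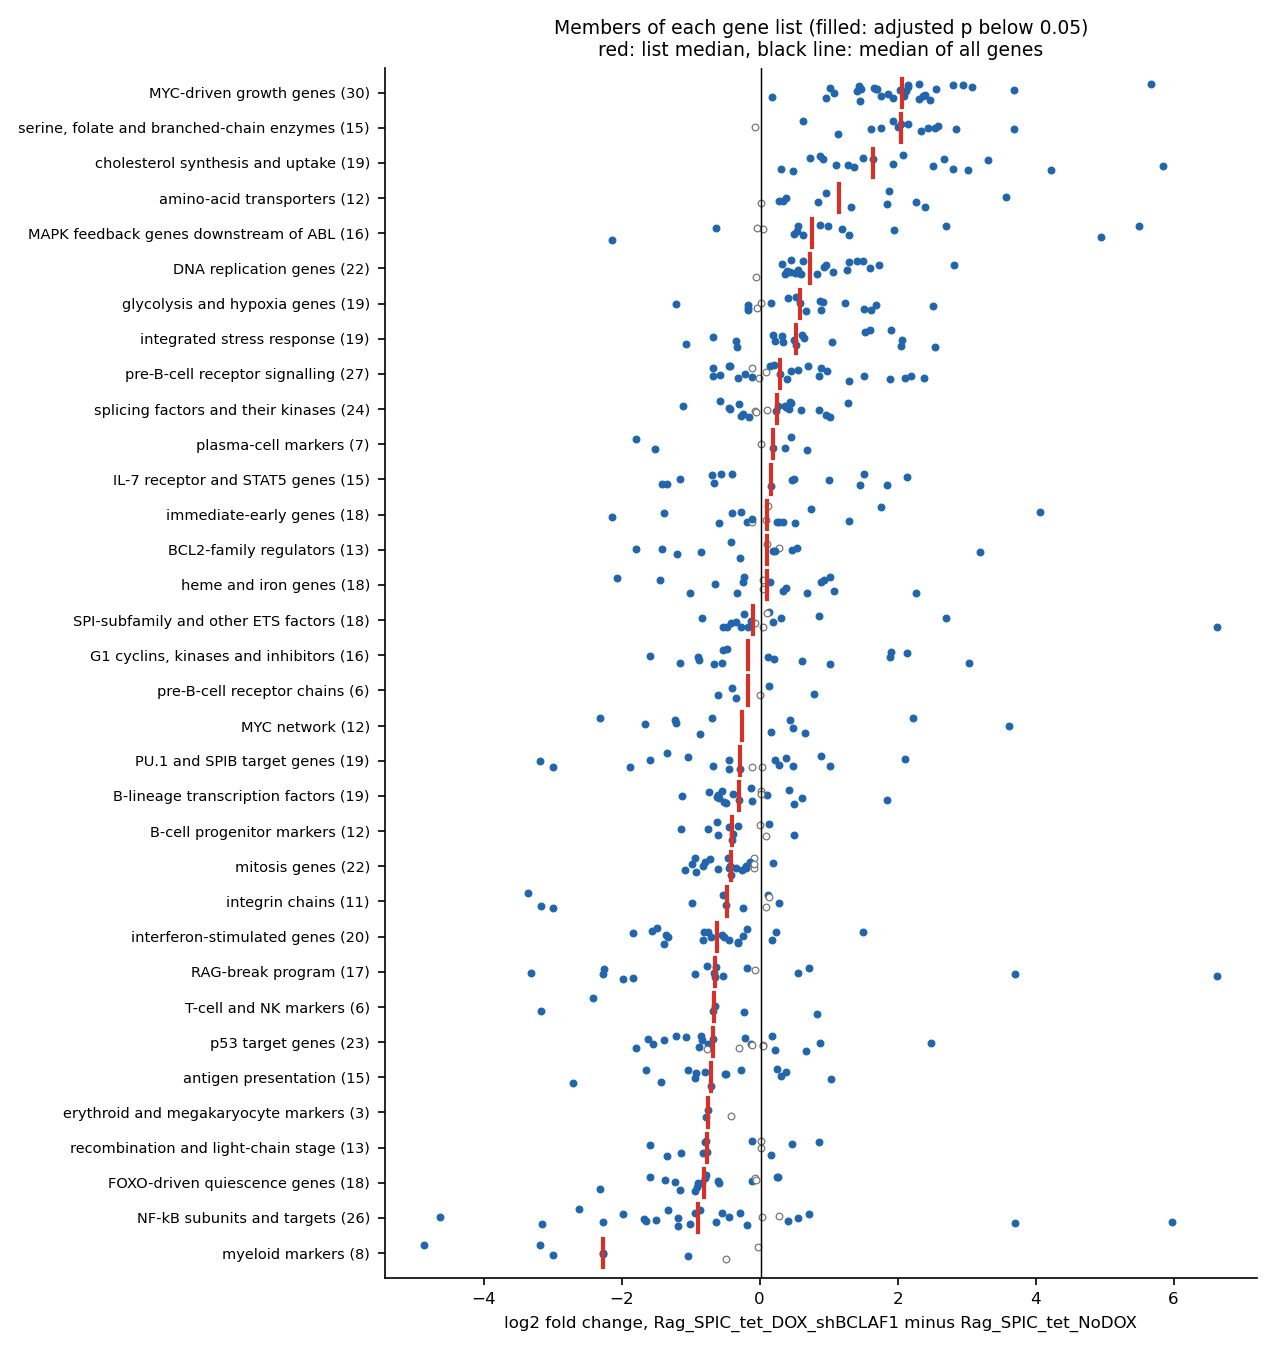
log2 fold change (horizontal axis) of each measured member of the 34 gene lists, 1 row per list with the number measured in brackets and the rows ordered by their median (red bar); filled points passed at an adjusted p below 0.05 and the black line is the median of all genes, 0.02. Growth, one-carbon and cholesterol lists have medians of 2.06, 2.05 and 1.64, and the myeloid markers have the lowest, -2.27.

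NF-kB genes were mostly lower, with 2 that rose steeply. Of 26, 19 fell and 5 rose, 12 and 2 by at least 1 log2 unit, with a median of -0.90. Among the secreted products Ebi3, a subunit of IL-27 and IL-35, was at 3.17, 3.01 and 3.32 log2 CPM against -1.42, -1.45 and -1.51 (difference -4.63, SE 0.19, limma adjusted p = 5.29e-13), with 3.02, 2.38 and 2.94 in Rag_SPIC_tet_DOX. Traf1, a signalling adaptor, fell by 2.62 (SE 0.20) and Ccl3, a chemokine, by 2.27 (SE 0.20). Ccl4, its relative, had 19 reads in the 3 uninduced libraries and 2 in the libraries labelled shBCLAF1, a ratio of 13.4 (95% interval 3.23 to 119, counting error only). Relb (-1.65, SE 0.06) and Nfkb2 (-1.18, SE 0.05), which encode subunits of the non-canonical branch and were picked for mention after their values were seen, fell as well. Lta, lymphotoxin alpha, was at 1.29, 1.45 and 1.44 in Rag_SPIC_tet_NoDOX, at 8.83, 0.51 and 7.57 in Rag_SPIC_tet_DOX and at 7.28, 7.36 and 7.46 in Rag_SPIC_tet_DOX_shBCLAF1 (difference 5.97, SE 0.08, adjusted p = 1.1e-18). Tnf, its neighbour in function, rose by 3.70 (SE 0.15) in the same manner, with 5.10, -1.22 and 3.83 in Rag_SPIC_tet_DOX.

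Genes known to be switched on by RAG breaks in pre-B cells share some members with that list, and are read here in Rag -/- cells. Of 17, 12 fell and 4 rose, 5 and 2 by at least 1 log2 unit, with a median of -0.65, and the 2 were Spic and Tnf. Spic is also the gene on the construct, whose reads cannot be told from those of the cell's own gene. Cd44, an adhesion receptor, was at 4.43, 4.61 and 4.51 log2 CPM in Rag_SPIC_tet_NoDOX, at 3.71, 3.99 and 3.93 in Rag_SPIC_tet_DOX and at 1.04, 1.24 and 1.32 in Rag_SPIC_tet_DOX_shBCLAF1 (difference -3.32, SE 0.11, limma adjusted p = 5.15e-14). Gadd45a, a growth arrest gene, fell by 2.25 (SE 0.08) and Ltb, lymphotoxin beta, by 1.97 (SE 0.06). Among p53 targets 13 of 23 fell and 5 rose, 6 and 1 by at least 1 log2 unit, with a median of -0.68 that was -0.43 without Rag_SPIC_tet_DOX_shBCLAF1 replicate 3 and -0.31 after quantile normalization. Over all genes 38.7% were lower and 41.0% higher, 11.0% and 12.1% by at least 1 log2 unit. Pmaip1, the death gene NOXA, was at 7.22, 7.31 and 7.30 against 5.54, 5.44 and 5.46, with 5.97, 6.04 and 6.09 in Rag_SPIC_tet_DOX (difference -1.80, SE 0.05). Fas, a death receptor, fell by 1.62 (SE 0.16), Phlda3, an AKT inhibitor, by 1.55 (SE 0.05), and Plk3, a stress kinase, rose by 2.48 (SE 0.12). Of the BCL2 family Bok rose by 3.19 (SE 0.15) and Bmf, a death inducer, fell by 1.19 (SE 0.06), and the 13 members had a median of 0.10. This sign was not stable: the median was -0.24 without Rag_SPIC_tet_NoDOX replicate 1, -0.17 with array weights, -0.16 with 2 added to each read count and -0.05 on centred libraries.

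Interferon and antigen presentation genes were mostly lower. Of 20 interferon-stimulated genes 17 fell and 3 rose, 6 and 1 by at least 1 log2 unit, with a median of -0.62. Ifih1, an RNA sensor, fell by 1.83 (SE 0.27), Isg15, a ubiquitin-like modifier, by 1.55 (SE 0.22), and Irf7, an interferon regulator, by 1.49 (SE 0.15), whereas Bst2, a tethering protein, rose by 1.50 (SE 0.08). Of 15 antigen presentation genes 11 fell and 4 rose, 4 and 1 by at least 1 log2 unit. H2-Aa, a class II chain, was at 4.30, 4.50 and 4.40 log2 CPM in Rag_SPIC_tet_NoDOX, at 6.16, 4.03 and 5.43 in Rag_SPIC_tet_DOX and at 1.44, 1.63 and 2.01 in Rag_SPIC_tet_DOX_shBCLAF1 (difference -2.70, SE 0.13, limma adjusted p = 4.88e-12). H2-DMa, which loads peptide onto class II, rose by 1.03 (SE 0.13), a call that was lost in the 15-library fit (adjusted p = 0.108).

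Several surface and matrix genes were among the largest falls at a well-expressed level. Itgb3, the beta-3 integrin chain, was at 7.22, 7.13 and 7.12 log2 CPM against 4.17, 3.88 and 3.93 (difference -3.16, SE 0.07, 8.96-fold lower, limma adjusted p = 2.5e-16), with 6.15, 6.84 and 6.52 in Rag_SPIC_tet_DOX. Itgax, the integrin chain CD11c, was not well expressed, with a mean log2 CPM of 0.44 against a median of 5.21 over genes. It was at 2.01, 2.16 and 2.19 against -0.86, -1.17 and -1.67 (difference -3.35, SE 0.24). With Itgam these were the only 3 of 11 integrin chains to fall by at least 1 log2 unit. Phka1, a subunit of phosphorylase kinase, fell by 3.12 (SE 0.06), Dtx4, a ubiquitin ligase of the Notch pathway, by 2.92 (SE 0.05), Gadd45g, a relative of Gadd45a, by 2.64 (SE 0.06), Lrp1, an endocytic receptor, by 2.52 (SE 0.06), and Plod2, a collagen-modifying enzyme, by 2.46 (SE 0.04). Dtx4 was near the uninduced level without the hairpin: it was at 8.10, 8.12 and 8.06 in Rag_SPIC_tet_NoDOX, at 7.62, 8.28 and 8.0 in Rag_SPIC_tet_DOX and at 5.17, 5.19 and 5.17 in Rag_SPIC_tet_DOX_shBCLAF1. Scn8a, a sodium channel, was lower already in Rag_SPIC_tet_DOX, at 6.74, 6.51 and 6.59, then 4.73, 5.42 and 4.80, then 4.12, 4.12 and 4.09. The remaining genes of the 12 largest falls were Ankrd33b (-2.76), Ralgps2 (-2.59), Zfp704 (-2.51) and Plscr4 (-2.42). Of the largest rises not yet described, Tubb3, a tubulin better known from neurons (3.39), Txnrd3, a thioredoxin reductase (3.24), Olfm1, a secreted olfactomedin (3.22), and Pole2, a DNA polymerase subunit (2.88), lay in the same range.

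**Figure D4:**
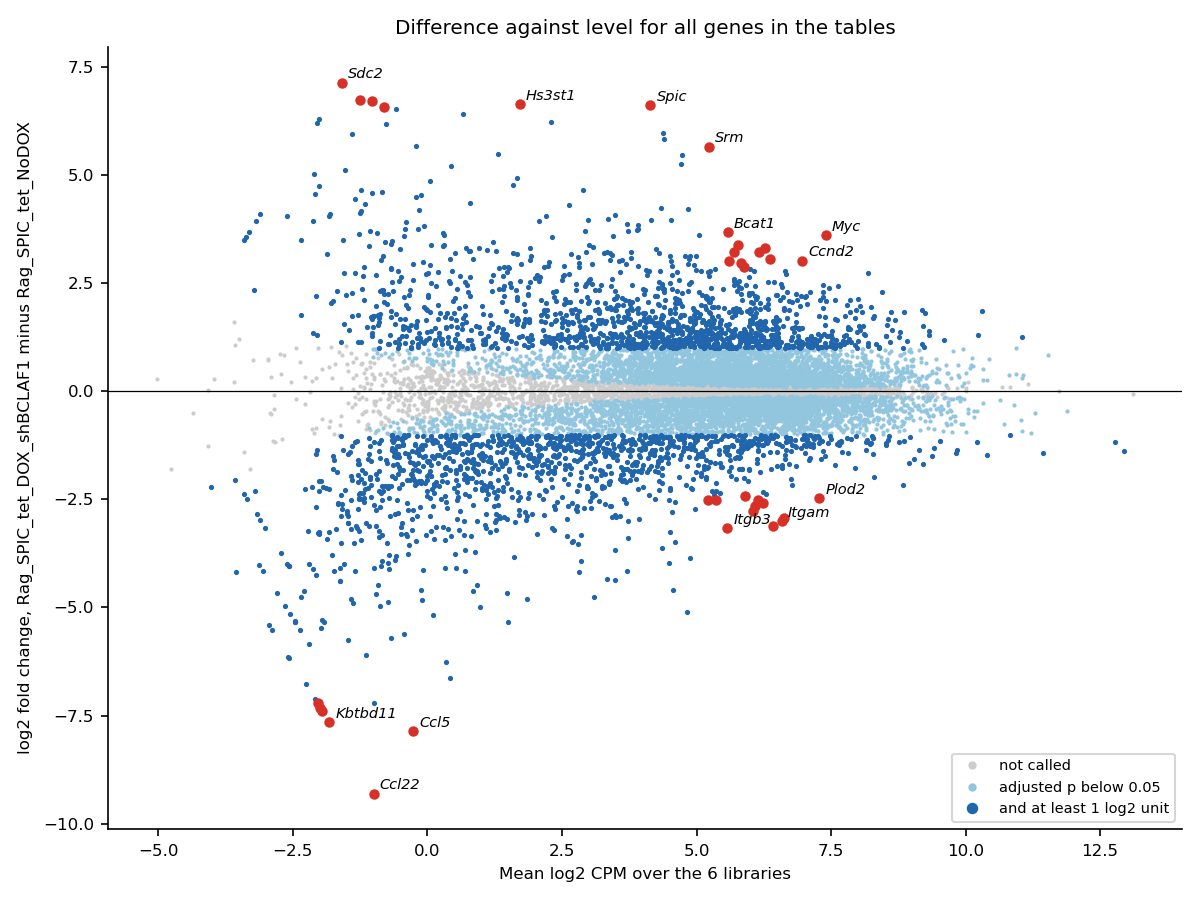
log2 fold change of Rag_SPIC_tet_DOX_shBCLAF1 over Rag_SPIC_tet_NoDOX (vertical axis) against the mean log2 CPM of the 6 libraries (horizontal axis) for all 11551 genes; dark points are the 2664 that passed with at least 1 log2 unit, red points the largest changes named in the text, 13 of them labelled. Fitted values at the far left rest on groups with few or 0 reads and are not bounds.

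Some genes went from readable to near 0, or the reverse. Ccl22, a chemokine, had 221, 245 and 209 reads in Rag_SPIC_tet_NoDOX and 0, 0 and 0 in Rag_SPIC_tet_DOX_shBCLAF1, at least 317-fold lower per library size when 3 reads are allowed over the group. Its log2 CPM was 4.81, 4.0 and 4.50 in Rag_SPIC_tet_DOX, above all uninduced libraries. Ccl5, another chemokine, had 241, 221 and 218 reads against 0, 3 and 1. Kbtbd11, Fyb (an adaptor of T cells and myeloid cells), Apol7c and Tiam1 (a RAC activator) had 0 reads in every library labelled shBCLAF1, at least 101-fold, 83.2-fold, 80.9-fold and 75.2-fold lower. In the other direction Sdc2, a cell-surface proteoglycan, had 0, 0 and 0 reads against 92, 109 and 98, at least 70.7-fold higher, and it had 0 reads in Rag_SPIC_tet_DOX as well. Hs3st1, which modifies heparan sulfate, had 2, 5 and 14 reads against 673, 880 and 952. Sfmbt2, a Polycomb-related gene, had 1 read in all against 326, a ratio of 231 (95% interval 41.2 to 9160), and Nav2 had 2 against 382, a ratio of 135 (37.2 to 1120). Rnft2 had 0, 0 and 4 reads against 124, 156 and 144. Intervals and bounds cover counting error only.

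The 3 libraries with doxycycline and no hairpin were not alike, so each is placed by itself. Among the 1399 genes higher by at least 1 log2 unit, Rag_SPIC_tet_DOX replicate 1 was nearer to the mean of Rag_SPIC_tet_DOX_shBCLAF1 than to that of Rag_SPIC_tet_NoDOX for 913 (65.3%), replicate 2 for 17 (1.2%) and replicate 3 for 261 (18.7%). Among the 1265 lower genes the numbers were 454 (35.9%), 255 (20.2%) and 342 (27.0%). For the 12 largest rises at a well-expressed level the numbers were 11, 0 and 5, and replicate 2 lay below all uninduced libraries for 8 of them. For the 12 largest falls they were 1, 0 and 1. Spic itself was at 3.72, 4.59 and 4.31 in these replicates, so the library nearest to Rag_SPIC_tet_DOX_shBCLAF1 had the lowest Spic. The labels give no batch, date or culture for these libraries, and these values are a description with no test.

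The same hairpin label in the Art -/- line gave a second contrast that shares no library with the first. It differs in 2 ways, the line and the absence of doxycycline and of the construct, which cannot be told apart. Bclaf1 was at 7.81, 7.75 and 6.41 log2 CPM in Art and at 8.29, 8.35 and 8.32 in Art_shBCLAF1, a difference of 0.99 (SE 0.37), or 0.54 (SE 0.06) without Art replicate 3. Its RNA thus goes against the hairpin's label in this line too, and directions here are those of the libraries labelled Art_shBCLAF1. The difference between the contrasts, tested as an interaction over 12 libraries, passed for 3610 of 11551 genes (31.3%), 1837 in which the Rag -/- value was the more positive and 1773 in which it was the more negative. Without Art replicate 3, which had 5.81 M reads and 145 genes at 0 reads, it passed for 7049. Of the 9206 genes changed in Rag -/- cells, 6239 had no interaction call, which does not show that they moved alike.

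Growth and cholesterol genes had positive medians in both lines, and mitosis genes had medians of opposite sign. The median of the 30 growth genes was 2.06 in Rag -/- cells and 2.27 in Art -/- cells without Art replicate 3, and 13 had an interaction call. In this paragraph the Art -/- medians leave out that library, whereas calls come from the fit over all 12 libraries. In that fit 31.3% of all genes had a call. The 19 cholesterol genes had medians of 1.64 and 1.68 and 5 calls. The 22 mitosis genes had medians of -0.42 and 1.22, and 21 had a call. Mki67 differed by -0.93 in Rag -/- cells and by 0.58 in Art -/- cells without Art replicate 3 (interaction -2.23 over all 12 libraries, limma adjusted p = 0.022). The 22 replication genes had medians of 0.73 and 2.09 and 14 calls, and the 19 glycolysis and hypoxia genes 0.59 and 2.14 and 15 calls. H2-Aa fell by 2.70 in Rag -/- cells, whereas it differed by 1.38 in Art -/- cells with Art replicate 3 and by 1.47 without it (interaction -4.09 over all 12 libraries, limma adjusted p = 1.9e-06).

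**Figure D5:**
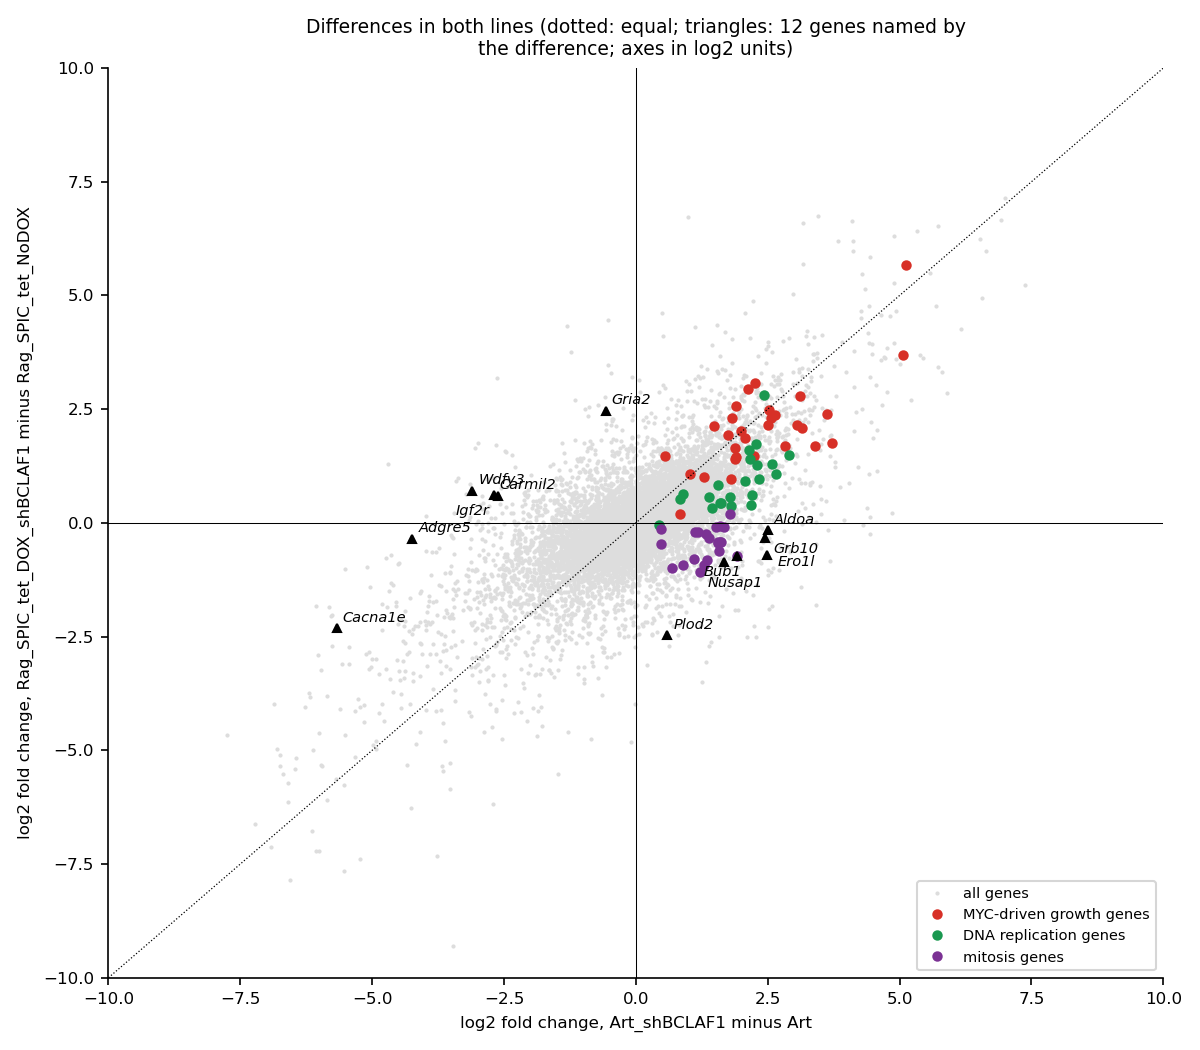
log2 fold change of Rag_SPIC_tet_DOX_shBCLAF1 over Rag_SPIC_tet_NoDOX (vertical axis) against that of Art_shBCLAF1 over Art (horizontal axis), for all 11551 genes in grey, with 3 gene lists in colour and triangles for the 12 genes with the largest interaction terms among changed genes of above-median level. Growth genes lie in the upper right and most mitosis genes lie right of 0 and below it. The horizontal axis includes Art replicate 3, which the Art -/- medians in the text leave out.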

How the data were processed

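Per the submitters' processing notes, the reads were handled with mm9, Subread, featureCounts 1.4.5, edgeR and limma, with no role or order given. The authors deposited 4 tables of log2 values (log2 CPM with 0.5 added to each read count), 1 column per library, holding only genes that passed their own adjusted p (highest 0.0499). Strand use in counting is not given in the sources used, so overlapping and antisense genes are uncertain. The tables were joined by gene identifier to 11551 genes. All values below 1000 reads returned to whole reads within 0.05. One Art column, 1 character off its label, was matched by its title.

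The 6 libraries were fitted with limma 3.58.1 in R 4.3.3 with a mean-variance trend, two-sided, with Benjamini-Hochberg adjustment over all genes and a threshold of 0.05. SE is the standard error of the log2 difference. The interaction used 12 libraries. The code was tested on simulated data.

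Genes named were those of the labels, the 12 highest and 12 lowest changes above the median level without overlap between groups, the 6 highest and 6 lowest of any level with at least 20 reads per library of the higher group, up to 4 per direction in each of 34 lists, and the 6 highest and 6 lowest interaction terms. A few list members that did not pass were named for that. The members and lists (527 genes) were chosen with earlier results of these data known. Alternatives changed the libraries fitted, the block, prior, weights, filter, scaling, pseudocount and replicates. Results for 3 genes are not reported here.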

Additional observations from a re-analysis of the deposited data

Results flagged for a closer look

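The contrast of the libraries labelled shBCLAF1 with their controls differed between the Rag -/- and the Art -/- line for 3610 genes by the interaction term over 12 libraries (limma, adjusted p below 0.05). 2 things differ between these contrasts, the line and the use of doxycycline with the SPIC construct, and they cannot be told apart. Each of the 12 genes below kept its direction and its call under every alternative run for the interaction.

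In 6 genes the Rag -/- value was the more positive. Adgre5, an adhesion receptor (CD97), had an interaction of 3.89 (SE 0.12, limma adjusted p = 6.18e-08). It was at 7.04, 6.94 and 6.92 log2 CPM in Art and at 2.71, 2.72 and 2.75 in Art_shBCLAF1, whereas Rag_SPIC_tet_NoDOX was at 5.87, 5.80 and 5.84 and Rag_SPIC_tet_DOX_shBCLAF1 at 5.64, 5.43 and 5.39. Wdfy3, an autophagy scaffold, had 3.82 (SE 0.23): it rose by 0.71 in Rag -/- cells and differed by -3.11 in Art -/- cells. Carmil2, an actin regulator, had 3.31 (SE 0.11) and Igf2r, a lysosomal sorting receptor, had 3.22 (SE 0.13), with the same pattern of signs. Cacna1e, a calcium channel, was lower in both contrasts, by more in Art -/- cells, and had 3.36 (SE 0.49). Its Art -/- difference was -5.675 with Art replicate 3 and -6.15 without it. Gria2, a glutamate receptor subunit, rose by 2.47 in Rag -/- cells and differed by -0.58 in Art -/- cells, giving 3.04 (SE 0.34).

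In the other 6 the Rag -/- value was the more negative. Ero1l, an oxidase of the endoplasmic reticulum, had an interaction of -3.20 (SE 0.32, limma adjusted p = 4.81e-05): it was at 6.01, 5.94 and 6.0 against 5.32, 5.29 and 5.21 in Rag -/- cells and at 4.97, 5.06 and 3.99 against 7.24, 7.01 and 7.23 in Art -/- cells. Plod2 had -3.06 (SE 0.52), and Art replicate 3 bears on its size: the Art libraries were at 7.88, 7.87 and 6.09 and the Art_shBCLAF1 libraries at 7.85, 7.90 and 7.87. Grb10, an adaptor of growth factor receptors, had -2.78 (SE 0.12), Aldoa, an aldolase, -2.67 (SE 0.48), and the mitotic genes Bub1 and Nusap1 had -2.64 (SE 0.60) and -2.54 (SE 0.41). Aldoa fell by only 0.16 in Rag -/- cells, a call lost under several alternatives.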

How the results depend on the processing

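The number of changed genes, 9206, fell to 6105 in a fit over all 15 libraries, and was 9258 with the replicate block. The replicate numbers were not found to pair the samples (correlations of same-numbered deviations 0.0695, 0.0724 and -0.0039), and under the block the call of H2-DMb1 was the only one lost among genes chosen by rule. The count at 1 log2 unit, 2664, was 1455 among genes with a mean log2 CPM of at least 3. The share of changed genes that were higher, 51.5%, turned to 41.1% on median-centred libraries and 47.3% after quantile normalization, and centring turned the signs of Spi1 (-0.013), Cd79a (-0.017), Itga6 (-0.029) and Igll1 (-0.148, where it was called). The interaction count, 3610, was 8123 with array weights, 3213 with the block and 2782 to 7049 when libraries were left out in turn, the highest without Art replicate 3. Of 4033 values of single genes under the alternatives, 3926 kept direction and call, and 101 lost the call. The medians of the 34 gene lists were less stable: of 577 values, 104 moved by more than the spread between replicates, 33 on centred libraries and 24 after quantile normalization. Their sign turned for the BCL2 family under 6 alternatives, for heme and iron genes (-0.054) and immediate-early genes (0.11 to -0.044) on centred libraries, and for the MYC network (-0.26 to 0.16) among genes with a mean log2 CPM of at least 3. That filter, which leaves fewer genes, also took the medians of myeloid markers from -2.27 to -1.03 and of interferon-stimulated genes from -0.62 to -0.32. The immediate-early median was also near 0 without Rag_SPIC_tet_NoDOX replicate 2.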

Other observations

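Other gene groups moved less uniformly, by the same fit of Rag_SPIC_tet_DOX_shBCLAF1 against Rag_SPIC_tet_NoDOX. Of 18 heme and iron genes 9 rose and 7 fell, 3 each by at least 1 log2 unit, with a median of 0.10 that turned to -0.05 on centred libraries. Over all genes 41.0% were higher and 38.7% lower, 12.1% and 11.0% by at least 1 log2 unit. Hmox1, heme oxygenase, was at 0.82, 0.50 and 0.91 log2 CPM in Rag_SPIC_tet_NoDOX, at 4.11, 0.41 and 2.86 in Rag_SPIC_tet_DOX and at 2.82, 3.04 and 3.16 in Rag_SPIC_tet_DOX_shBCLAF1 (difference 2.26, SE 0.16, limma adjusted p = 5.53e-10). Slc40a1, the iron exporter ferroportin, was at 1.59, 1.02 and 1.32, then -0.89, -0.71 and -0.48, then -0.98, -0.65 and -0.63 (difference -2.06, SE 0.24), so the groups with doxycycline were alike in lying below the uninduced one. Both are known SPIC-linked genes in iron-recycling macrophages, and here they moved in opposite directions.

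Of 19 genes of the integrated stress response and the folding response of the endoplasmic reticulum, 15 rose and 4 fell, 7 and 1 by at least 1 log2 unit, with a median of 0.53. Of 24 splicing factors and their kinases 13 rose and 8 fell, with a median of 0.25 (0.10 on centred libraries). Srsf6 rose by 1.28 (SE 0.05) and Clk1, a kinase of splicing factors, fell by 1.12 (SE 0.05). Among 18 immediate-early genes 8 rose and 7 fell. The splicing and immediate-early counts stand beside 41.0% of all genes higher and 38.7% lower. Fosb was at 0.63, -0.22 and 0.13 log2 CPM in Rag_SPIC_tet_NoDOX, at -0.41, -0.82 and -0.79 in Rag_SPIC_tet_DOX and at 4.27, 4.15 and 4.30 in Rag_SPIC_tet_DOX_shBCLAF1 (difference 4.06, SE 0.17, limma adjusted p = 9.97e-13), and Fos went the same way, below the uninduced level in Rag_SPIC_tet_DOX and above it in the libraries labelled shBCLAF1 (difference 1.77, SE 0.15).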
